A study of Mus musculus with 24 samples.

Results

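Genes of B cells and plasma cells were followed through 24 mouse tumors: Cd79a, Cd79b, Ms4a1, Ighm, Igkc, Jchain and Mzb1. They were found by matching the Ensembl identifiers of the count table to GENCODE M21 symbols, and they are 7 of 55401 gene rows. B cells carry an antibody on their surface as a receptor, which signals through the paired chains CD79a and CD79b, and most also carry CD20, the product of Ms4a1. When a B cell becomes a plasma cell it stops displaying that receptor and secretes antibody, built from heavy chains such as the IgM chain of Ighm and light chains such as the kappa chain of Igkc. The J chain (Jchain) joins IgM or IgA units into polymers, and Mzb1 encodes an endoplasmic reticulum protein that helps antibody assembly and secretion.

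All tumors were of TC2Ras, a prostate adenocarcinoma line of the mouse derived from TRAMP-C2 by adding activated H-Ras, and grew in male C57BL/6 mice aged 8 to 10 weeks. All mice received plasmid in muscle by sonoporation, at 10 µg per muscle, either a control vector or a vector for IL-27, a cytokine that acts on T cells and other leukocytes. The 4 subcutaneous (SC) tumors were taken on day 7 and comprised 2 SC control and 2 SC IL-27 tumors. The 20 intratibial tumors grew in bone from luciferase-bearing TC2Ras cells, with 3 tumors per group on day 14 (D14) and 2 per group at the end of the study (EOS), which was the ethical endpoint. At both times there were a control group, an IL-27 group, a cabo group and a group given both (IL-27+cabo). Here cabo is cabozantinib, an inhibitor of receptor tyrosine kinases, given by mouth at 30 mg/kg, and mice without cabo received its vehicle. Dosing was daily over the first 2 weeks, so EOS tumors may have been taken after it ended. The vector was delivered to muscle and not to the tumor, and all tumors come from 1 cell line. Intratibial tumors are named by the mouse number in their labels.

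Each library held between 63729005 and 83782258 counts on genes. Of the 47 member values from 1 to 20 counts, 28 (59.6%) were multiples of 4, so the counting error of low values may be larger than the counts imply. The labelled prostate adenocarcinoma was checked against 6 epithelial genes: Krt8 had between 159 and 19250 counts, and Tmprss2 was at 0 in all 4 SC tumors and in 3 intratibial tumors. Within the D14 IL-27+cabo group, the tumor of mouse 20 stood apart, with a Pearson's r across genes of 0.908 at the lowest within its group, against 0.953 or more in every other group. The tumor of mouse 4, labelled D14 IL-27, lay with the D14 controls in the T cell, muscle and immunoglobulin constant genes, and D14 IL-27 values are given with and without it. Summed CPM (counts scaled to library size by edgeR's TMM method) of 17 skeletal muscle genes ranged from 46.1 to 205.7 in D14 controls, from 1339 to 2056 with cabo and from 1694 to 5251 with IL-27+cabo.

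RefSeq promoter windows, 250 bases before to 50 after the start, matched 2 of the 7 members, Cd79a and Jchain, whose levels followed each other across the intratibial tumors. Both are printed in the gene's direction on GRCm38.p6, Cd79a at chr7:24897247-24897546 on the plus strand and Jchain at chr5:88527848-88528147 on the minus strand. Capitals mark the E-box CAGGTG, read on either strand, the kind of motif bound by the B cell factor E2A.
Cd79a: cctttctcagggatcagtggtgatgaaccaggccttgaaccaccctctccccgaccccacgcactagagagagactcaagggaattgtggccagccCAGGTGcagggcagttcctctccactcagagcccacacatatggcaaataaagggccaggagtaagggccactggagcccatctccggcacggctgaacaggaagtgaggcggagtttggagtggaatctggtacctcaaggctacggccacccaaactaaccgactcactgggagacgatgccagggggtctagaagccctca
Jchain: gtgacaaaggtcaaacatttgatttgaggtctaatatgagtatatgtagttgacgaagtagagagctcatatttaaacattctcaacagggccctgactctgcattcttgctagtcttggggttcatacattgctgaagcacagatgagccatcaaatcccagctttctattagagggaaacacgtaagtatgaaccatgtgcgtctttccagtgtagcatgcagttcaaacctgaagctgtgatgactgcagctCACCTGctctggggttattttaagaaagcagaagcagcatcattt
The E-box was found once in each window, and in 20.2% of all 32851 RefSeq promoter windows of that length. The octamer ATGCAAAT and the pattern CCCNNGGG, each searched on both strands, were in neither window and in 1.74% and 13.7% of all windows. These matches describe letters only.

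The members lie on 7 chromosomes of GRCm38. Cd79a (ENSMUSG00000003379) lies on chromosome 7 from 24897381 to 24902197, Cd79b (ENSMUSG00000040592) on chromosome 11 from 106311341 to 106314762 and Ms4a1 (ENSMUSG00000024673) on chromosome 19 from 11249675 to 11266241. The antibody genes Ighm (ENSMUSG00000076617) and Igkc (ENSMUSG00000076609) are constant regions, on chromosome 12 from 113418558 to 113422730 and chromosome 6 from 70726435 to 70726966. Reads of many rearranged antibody transcripts fall on these constant regions. Jchain (ENSMUSG00000067149) lies on chromosome 5 from 88519809 to 88527891, and Mzb1 (ENSMUSG00000024353) on chromosome 18 from 35647267 to 35649367.

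Antibody chains were the most abundant members wherever they were high. In D14 controls, mean CPM per kilobase of the longest transcript was 31.7 for Igkc and 21.7 for Ighm, 1.77 for Jchain, 0.771 for Cd79b, 0.493 for Cd79a, 0.271 for Mzb1 and 0.153 for Ms4a1. In bulk tumors, fewer cells of a type and less RNA per cell cannot be told apart.

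**Figure D1:**
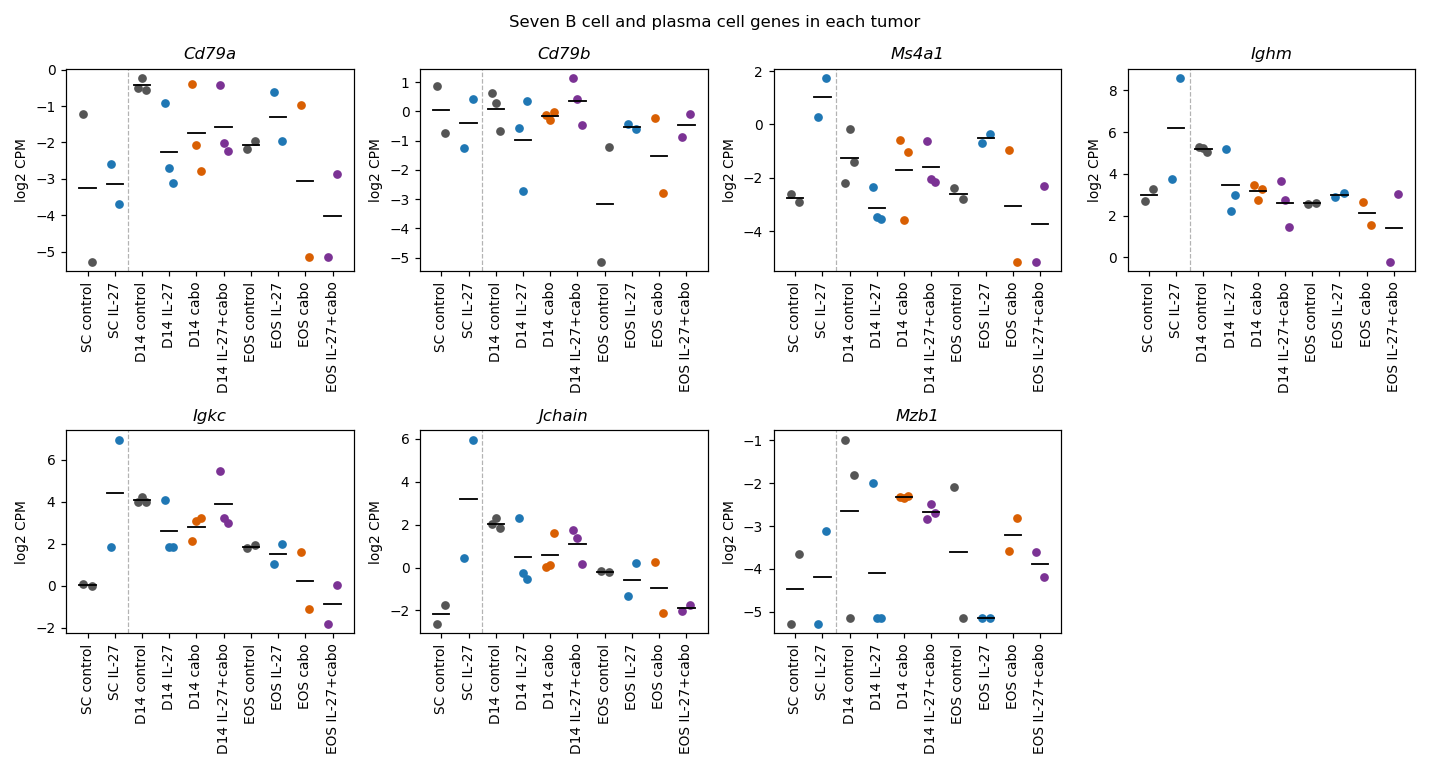
log2 CPM of each member (y axis) in every tumor (points) of the 10 groups (x axis), with the group mean as a bar. SC and intratibial tumors, either side of the dashed line, were normalized apart, and Ighm, Igkc and Jchain are highest in 1 SC IL-27 tumor.

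In the SC tumors the comparison asks whether IL-27 delivered to muscle changed the tumor's transcripts. Ms4a1 had 94 and 260 counts in the SC IL-27 tumors and 11 and 8 in the SC controls. The groups did not overlap, and 31.9% of all genes tested were likewise higher in CPM without overlap. The log2 fold change was 4.18 (SE, standard error, 0.83; edgeR quasi-likelihood test, adjusted p = 0.0137). Jchain had 107 and 4838 counts with IL-27 and 11 and 20 without it, a log2 fold change of 7.27 (SE 1.73, edgeR adjusted p = 0.0276). Igkc had 281 and 9719 counts with IL-27 and 82 and 72 without it, a log2 fold change of 5.99 (SE 1.50, edgeR adjusted p = 0.0325). Both rose, but their levels in the IL-27 tumors were far apart.

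Ighm had 1061 and 30319 counts in the SC IL-27 tumors and 514 and 719 in the SC controls, a log2 fold change of 4.63 that did not pass the test (SE 1.35, edgeR adjusted p = 0.0543). Mean Ighm was 201 ± 265 CPM in the IL-27 tumors and 8.11 ± 2.36 CPM in the controls (SD, n = 2 per group). The receptor chains did not follow the antibody chains: Cd79a had 11 and 4 counts with IL-27 and 32 and 0 without it, and Cd79b had 31 and 103 with IL-27 and 144 and 42 without it. Neither passed the test (edgeR adjusted p = 0.727 and 0.743), and Mzb1, at 0 and 7 counts with IL-27 and 0 and 4 without it, was too low to be tested.

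Thus 3 of the 6 tested members were called higher, against 3.52% of all 19360 genes tested (682 higher and 3198 lower, or 518 higher and 1150 lower with each library's trend in GC content and length removed, where of the members Igkc alone was called). DESeq2 called 4 members, Ighm among them. The median log2 fold change of these 6 was 4.40, beside 0.04 for all genes. All of these calls rest on few tumors. Without IL-27 replicate 2, no member was called, and the log2 fold changes were 3.24 for Ms4a1, 1.81 for Igkc, 2.71 for Jchain and 0.72 for Ighm (edgeR adjusted p between 0.0917 and 0.502). Without control replicate 1 or 2 no member was called either. Each of these fits leaves 1 tumor in a group, which is assumed to vary like the other group. Genes of other tissues moved with this result: 15 of 17 skeletal muscle genes were called higher and 1, Eno3, lower, and 5 of 6 tested marrow myeloid genes were called higher. Their summed CPM ranged from 437.0 to 1126 and from 38.0 to 39.5 with IL-27, against 55.4 to 104.4 and 0.878 to 2.01 without it. No muscle gene and no marrow myeloid gene was at 0 in both IL-27 tumors, while Myh2, Mpo, Elane, Prtn3, Ltf and Camp were at 0 in both controls. Their part in the result was not tested.

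**Figure D2:**
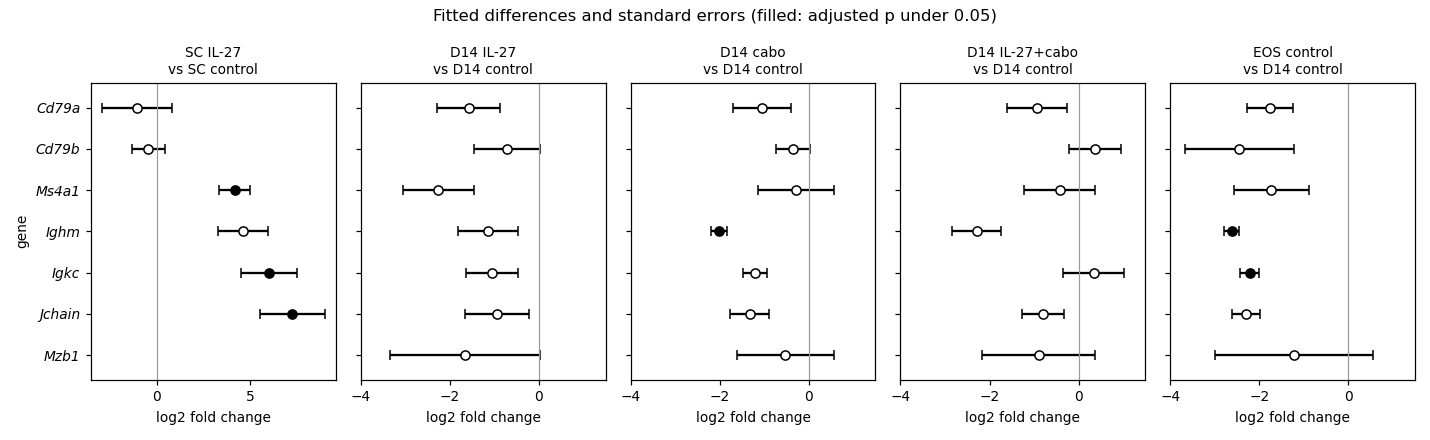
log2 fold change (x axis) of each member (y axis) with its standard error in 5 comparisons; filled points had an adjusted p under 0.05. The SC panel has its own scale, and Mzb1 was not tested there.

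Ighm led the heavy-chain constant genes in all SC tumors, with 71.6% and 86.2% of their counts in the controls and 91.9% in IL-27 replicate 1. In IL-27 replicate 2 these genes had 31324 counts, of which Ighm made up 96.8% (95% Wilson interval 96.6 to 97.0), and Ighg3 had 646 counts. Lambda light-chain constant genes, Iglc1, Iglc2 and Iglc3, made up 32.7% of its light-chain counts, against at most 17.4% in any other tumor. Constant genes of the same class are related, and reads may be split between them, which was not measured here. The B cell chemokine Cxcl13 had 4732 counts there, 371 in the other SC IL-27 tumor, and 30 and 263 in the SC controls.

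The variable (V) segments, which encode the part of an antibody that binds antigen, were counted over 222 genes. SC IL-27 replicate 2 had 20375 V counts, and the other SC tumors between 115 and 283. Igkv14-126 led with 4099 counts, or 20.1% of V counts (95% Wilson interval 19.6 to 20.7), ahead of Iglv1 with 3950, Iglv2 with 2048 and Igkv1-110. Ighv11-2 had 1635 counts. In no other tumor did Igkv14-126 exceed 30 counts or Ighv11-2 exceed 15. As background, Ighv11-2 and Igkv14-126 are paired in antibodies of B-1 cells that bind phosphatidylcholine. The last 120 bases of the GENCODE M21 transcripts of 4 of the 5 leading segments are printed, for the pair of heavy and light segments and for 2 near copies, in the gene's direction, from chr6:67896172-67896642 (plus strand), chr12:114048241-114048812, chr16:19085017-19085500 and chr16:19260401-19260859 (minus strand) of GRCm38. Capitals mark TATTNCTGT, which ends in the codon of the conserved cysteine where the third antigen-binding loop begins.
Igkv14-126: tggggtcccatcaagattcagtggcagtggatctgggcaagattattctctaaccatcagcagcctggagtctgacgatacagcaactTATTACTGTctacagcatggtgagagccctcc
Ighv11-2: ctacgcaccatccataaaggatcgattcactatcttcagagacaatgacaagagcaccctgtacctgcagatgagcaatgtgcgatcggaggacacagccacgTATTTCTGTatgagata
Iglv1: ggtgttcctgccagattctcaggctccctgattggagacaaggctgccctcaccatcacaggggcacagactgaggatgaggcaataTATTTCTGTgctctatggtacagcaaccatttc
Iglv2: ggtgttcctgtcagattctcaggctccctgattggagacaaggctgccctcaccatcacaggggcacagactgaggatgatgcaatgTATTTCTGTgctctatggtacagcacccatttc
Iglv1 and Iglv2 were identical at 116 of these 120 bases (96.7%), so counts split between them are uncertain.

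On day 14 the comparisons ask what IL-27, cabo and both did in tumors in bone. Ighm fell with cabo, from 2880, 2942 and 2443 counts in the controls to 766, 489 and 674. The groups did not overlap, and the means were 36.8 ± 3.41 CPM in controls and 9.21 ± 2.16 with cabo (SD, n = 3 each). The log2 fold change was -2.02 (SE 0.19, edgeR adjusted p = 0.00331), where 0.693% of all 18627 genes tested were called lower. It was the 1 member called of 7 tested.

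Igkc had 1166, 1463 and 1171 counts in D14 controls and 301, 607 and 650 with cabo, and Jchain had 294, 382 and 260 against 70, 76 and 204. Neither overlapped between the groups, and neither passed the test. With Ighm they were 3 of 7 members that lay lower without overlap, where 11.9% of all genes tested did (in CPM). For Igkc and Jchain the log2 fold changes were -1.21 (SE 0.27, edgeR adjusted p = 0.0759) and -1.33 (SE 0.43, edgeR adjusted p = 0.168). DESeq2 called both, and without mouse 27 edgeR called Jchain at -2.03 (adjusted p = 0.0475). Cd79a, Cd79b, Ms4a1 and Mzb1 overlapped between the groups, with edgeR adjusted p-values from 0.429 to 0.888. For example, Cd79b had 62, 56 and 65 counts with cabo and 111, 92 and 45 in controls. Over the 7 members the median log2 fold change was -1.05, and over all genes it was -0.01.

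The call of Ighm held when any 1 tumor was left out (edgeR adjusted p between 0.00999 and 0.0261). It was lost with all intratibial groups in 1 fit, with a log2 fold change of -1.996 (edgeR adjusted p = 0.686), and with the muscle genes as a covariate, at -1.89 (edgeR adjusted p = 0.429). Other B lineage genes were called lower with cabo: Pou2af1, a B cell coactivator, at -2.95 (SE 0.45), Cxcr5, the receptor for CXCL13, at -2.52 (SE 0.25) and the IgG gene Ighg2c at -1.89 (SE 0.30) on the log2 scale (edgeR adjusted p = 0.0237, 0.00399 and 0.0265). They were 1 of 8 B cell transcription factors, 1 of 13 surface and signaling genes, and 1 beside Ighm of 12 immunoglobulin constant genes. No plasma cell gene of 8 was called, and Tnfrsf17, a plasma cell receptor, was at 0 in every D14 tumor. Of the T cell genes 7 of 10 were called lower, with summed CPM from 26.0 to 36.7 with cabo against 87.3 to 96.5 in controls.

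The T cell list did not move as one. Cd8a, a chain of the CD8 receptor, had 199, 104 and 74 counts with cabo and 26, 33 and 6 in controls, and its partner Cd8b1 had 100, 28 and 45 against 16, 15 and 14. Both had an unadjusted p under 0.05 and neither passed the adjusted test. Of the muscle genes 6 of 17 were called higher, and no T cell or muscle gene was at 0 in a whole group. Of 5 lymph node stroma genes 1 was tested, the chemokine Ccl21a, which was called lower at -4.61 (SE 0.62, edgeR adjusted p = 0.0156), with 66, 8 and 73 counts against 1072, 1483 and 1285. The summed CPM of that list was 0.112 to 1.33 with cabo and 14.6 to 19.5 in controls, and Ccl19 was at 0 in both groups. Erythroid genes summed to 14.3 to 29.8 CPM with cabo and 52.6 to 238.1 in controls, and none of 6 was called, with 5 lower at an unadjusted p under 0.05. The part of these genes in the result was not tested.

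With IL-27+cabo, Ighm had 677, 502 and 192 counts (mice 20, 22 and 24), below every D14 control in CPM (as was Jchain, and 7.58% of all genes tested), but the log2 fold change of -2.28 did not pass the test (SE 0.55, edgeR adjusted p = 0.300, unadjusted p = 0.00434). Without mouse 20 it was -2.97 and passed (edgeR adjusted p = 0.0272). Igkc had 2393 counts in mouse 20 and 693 and 562 in mice 22 and 24, so that its log2 fold change against controls was 0.34 with mouse 20 and -0.98 without it (edgeR adjusted p = 0.907 and 0.0641). No member of 7 was called, where 0.064% of 18750 genes were. Of the T cell genes 1 of 10, Cd3e, was called lower, at -2.67 (SE 0.26, edgeR adjusted p = 0.0406). Their summed CPM was 21.8 to 31.0 with IL-27+cabo, none was at 0 in the whole group, and their part was not tested. Against cabo alone, against IL-27 alone and in the interaction of IL-27 with cabo, no gene was called, and the lowest edgeR adjusted p of a member was 0.788, 0.916 and 0.952. In these fits 359, 900 and 375 genes had an unadjusted p under 0.05, and DESeq2 called 5, 167 and 4 genes.

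With IL-27 alone no gene of 18519 was called by edgeR, while 511 genes (2.76%) had an unadjusted p under 0.05 and DESeq2 called 2 genes. Ighm had 2654 counts in mouse 4, within the range of the controls, but 303 in mouse 6 and 544 in mouse 8. Igkc showed the same split, with 1228 counts in mouse 4 and 227 and 250 in the others, as did Jchain with 356, 52 and 46. Cd79a and Ms4a1 were lower in every IL-27 tumor than in any control, which held in CPM for 4.73% of all genes tested. Ms4a1 had 12, 4 and 4 counts against 14, 67 and 26 in controls, a log2 fold change of -2.26 (SE 0.80, unadjusted p = 0.0226, edgeR adjusted p = 1). Mouse 4 lay nearer to the control mean than to the mean of mice 6 and 8 for 6 of 7 members, 12 of 12 immunoglobulin constant genes and 10 of 10 T cell genes. The count was 6 of 9 for plasma cell genes, 6 of 8 for B cell transcription factors, 7 of 14 for B cell surface and signaling genes, 1 of 5 for germinal center genes and 0 of 7 for precursor genes. It was 17 of 17 for muscle genes, with summed CPM of 68.5 in mouse 4, 148.9 in mouse 6 and 2247 in mouse 8. By that sum mouse 6 also lay within the control range of 46.1 to 205.7 CPM, and only mouse 8 lay outside it. T cell genes summed to 89.9 CPM in mouse 4, and to 16.9 and 23.1 in mice 6 and 8. The count of genes nearer to the control mean was not made over all genes.

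In most of these lists the tumor labelled IL-27 from mouse 4 thus lay with the D14 controls, and its label was used as given. Without it no member was called against controls either, but the log2 fold change of Ighm went from -1.15 to -2.54 and that of Igkc from -1.05 to -2.23 (edgeR adjusted p = 0.0795 for both without it), and that of Jchain from -0.94 to -2.48 (edgeR adjusted p = 0.117). Because mouse 4 was singled out by these same genes, larger differences without it follow from that choice and are no separate evidence. Ms4a1 went from -2.26 to -2.92 (edgeR adjusted p = 0.691), and it lay between -2.92 and -1.47 when any 1 tumor was left out. In the interaction, Igkc went from 2.58 to 3.75 and Ighm from 0.85 to 2.25 (edgeR adjusted p = 1 for both). When any 1 tumor was left out, Igkc in the interaction lay between 1.29 and 3.75. Between EOS and D14 IL-27 tumors, Ighm turned from -1.05 to 0.35 and Jchain from -1.51 to 0.04, neither called (edgeR adjusted p = 0.610 and 0.984). Between IL-27+cabo and IL-27 on day 14, Ighm turned from -1.17 to 0.22 (edgeR adjusted p = 1). The EOS minus D14 differences were not fitted without mouse 4.

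**Figure D3:**
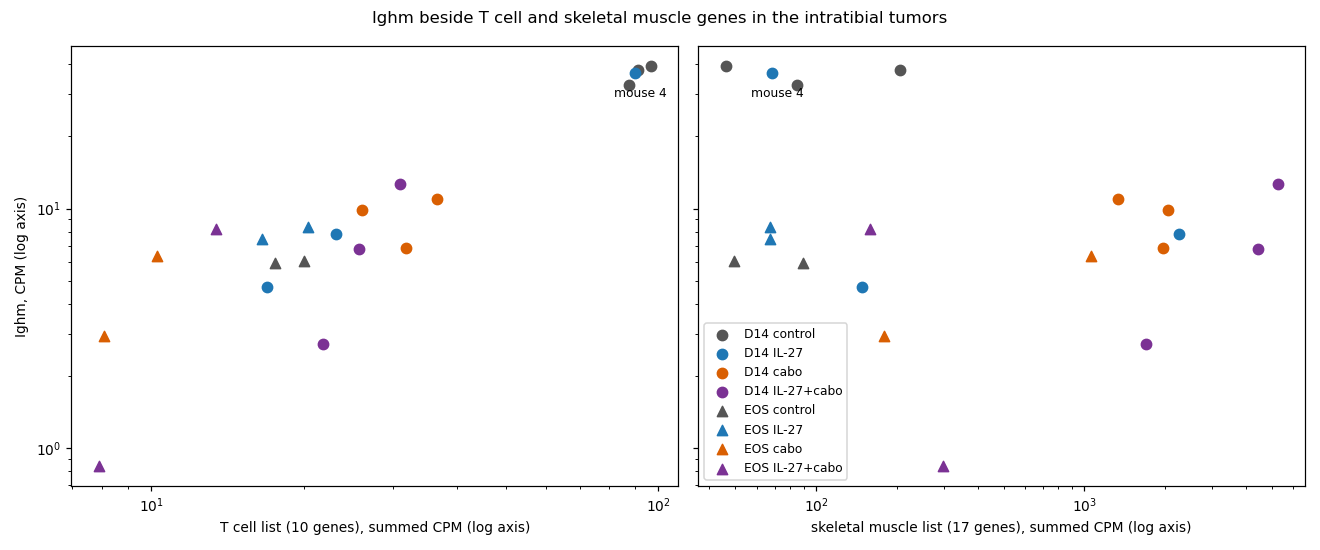
Ighm CPM (y axis) against the summed CPM of 10 T cell genes (left) and 17 skeletal muscle genes (right) in the 20 intratibial tumors, on log axes; circles are D14 and triangles EOS tumors. The D14 controls and mouse 4 lie together, with 32.9 to 39.3 CPM of Ighm and T cell sums from 87.3 to 96.5 CPM.

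Antibody transcripts were lower in EOS control tumors than in D14 control tumors. Ighm had 421 and 430 counts in EOS controls, against 2443 to 2942 on day 14, a log2 fold change of -2.62 (SE 0.17, edgeR adjusted p = 0.0212). Igkc had 247 and 267 counts against 1166 to 1463, a log2 fold change of -2.22 (SE 0.21, edgeR adjusted p = 0.0256). These were 2 of the 7 members, where 0.104% of 19292 genes were called, all 20 of them lower. Jchain, at 62 and 58 counts against 260 to 382, had a log2 fold change of -2.30 (SE 0.31, edgeR adjusted p = 0.0662), and Cd79a, at 14 and 16 counts against 48 to 64, one of -1.76 (SE 0.51, edgeR adjusted p = 0.243).

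DESeq2 called 3 members, Jchain among them. Both edgeR calls were lost when any 1 of the 5 tumors was left out (edgeR adjusted p from 0.0845 to 0.284), although Ighm stayed between -2.69 and -2.56 and Igkc between -2.31 and -2.13 on the log2 scale. They were also lost with the muscle covariate (edgeR adjusted p = 0.168 for both) and with all intratibial groups in 1 fit (0.556 and 0.626). Igha and Ighg2c were called lower too, at -2.28 and -3.20 on the log2 scale (SE 0.21 and 0.37, edgeR adjusted p = 0.0256 and 0.0461), making 4 of 12 immunoglobulin constant genes. Of the T cell genes 5 of 10 were called lower, and their summed CPM was 17.6 to 19.98 at EOS, with none at 0 in both tumors. Their part was not tested.

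In treated tumors no member was called between D14 and EOS, where 2.09% of 19144 genes were called with cabo and none with IL-27 or IL-27+cabo. By unadjusted p under 0.05 there were 963 genes with IL-27 and 742 with IL-27+cabo, and by DESeq2 109 and 330. EOS IL-27+cabo tumors had 19 and 74 counts of Igkc against 562 to 2393 on day 14 (log2 fold change -5.12, SE 1.24, edgeR adjusted p = 0.629, and -6.34 to -3.80 with 1 tumor left out) and 16 and 20 of Jchain against 77 to 192 (-3.30, SE 0.73, edgeR adjusted p = 0.550). With cabo, Igkc had 222 and 30 counts against 301 to 650 (-2.07, SE 0.76, edgeR adjusted p = 0.231) and Ighm 465 and 205 against 489 to 766 (-0.97, SE 0.36, edgeR adjusted p = 0.239). With 1 tumor left out, the log2 fold change with cabo ran from -4.08 to -1.27 for Igkc and from -1.63 to -0.52 for Ighm. The value of -4.08 was without mouse 19, where mouse 23 stood alone and was assumed to vary like the D14 tumors. Of the T cell genes 3 of 10 (Cd3e, Lck and Trac) were called lower at EOS with cabo, with summed CPM of 8.07 to 10.3 against 26.0 to 36.7 and none at 0 in both tumors. Of 6 tested erythroid genes 3 were called higher, with summed CPM of 77.7 to 84.7 against 14.3 to 29.8, and the part of either list was not tested. With IL-27, Ms4a1 ran the other way, at 42 and 53 counts against 12, 4 and 4 on day 14 (2.80, SE 0.75, edgeR adjusted p = 0.818).

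Within EOS no member was called for any treatment, and no gene was called by edgeR among 20026 tested. For IL-27, cabo and IL-27+cabo, 651, 1783 and 2835 genes had an unadjusted p under 0.05, and DESeq2 called 23, 270 and 937. Igkc in EOS IL-27+cabo came nearest, with a log2 fold change of -2.54 (SE 0.94, unadjusted p = 0.0284, edgeR adjusted p = 0.298) against 247 and 267 counts in EOS controls, and values from -3.80 to -1.89 with 1 tumor left out. Whether a treatment's change differed between EOS and D14 was tested directly, and no member passed (0.0788% of 21563 genes were called for cabo and for IL-27+cabo, and none for IL-27, where 417 had an unadjusted p under 0.05 and DESeq2 called 3). The lowest unadjusted p were 0.0361 for Ms4a1 with IL-27, a difference of 4.53 (SE 1.98), and 0.0408 for Igkc with IL-27+cabo, one of -2.82 (SE 1.27), and edgeR adjusted p-values were 1 and 0.539. These comparisons share control tumors. In the order of the 8 intratibial group means, 1 of 7 neighbouring gaps exceeded the sum of both SDs for Ighm, and none did for any other member.

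The study called a gene from an unadjusted p under 0.05 with a limit on the fold change. By those limits, computed on the edgeR fits, 4 members were higher in SC IL-27 tumors (Ms4a1, Ighm, Igkc and Jchain), where 12.3% of genes were. On day 14, Ms4a1 was lower with IL-27 (0.308% of genes), Ighm was lower with cabo (1.18%) and with IL-27+cabo (1.03%), and Igkc was higher in the interaction (0.995%). Between EOS and D14 controls 4 members were lower, Cd79a, Ighm, Igkc and Jchain, beside 2.74% of genes. In treated tumors Ms4a1 was higher at EOS with IL-27 (0.351%), Igkc lower with cabo (2.09%), and Igkc and Jchain lower with IL-27+cabo (2.42%). Igkc was also lower in EOS IL-27+cabo than in EOS control tumors (1.26%). Of the differences between EOS and D14 changes, Ms4a1 with IL-27 was higher (0.83%) and Igkc with IL-27+cabo was lower (3.57%).

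The class of the heavy chain differed between tumors. In D14 controls Ighm made up 50.3% to 53.6% of heavy-chain constant counts, the IgG genes (Ighg1, Ighg2b, Ighg2c and Ighg3) 21.2% to 24.1% and Igha 21.1% to 24.02%. The D14 IL-27 tumors had similar shares, with 50.6% Ighm, 25.4% IgG and 22.4% Igha in mouse 4, 45.4%, 21.4% and 31.0% in mouse 6, and 56.8%, 18.3% and 23.2% in mouse 8. At EOS Ighm led in every tumor, with 47.4% and 50.9% in controls, 49.2% and 66.8% with cabo, and 52.5% and 87.3% with IL-27+cabo. With cabo or IL-27+cabo on day 14, the leading class changed from tumor to tumor. Igha made up 73.7% in mouse 20 (95% Wilson interval 72.4 to 75.0) and 59.4% in mouse 22, while IgG genes made up 80.1% in mouse 24 (78.2 to 81.9) and 51.9% in mouse 25. Igha led in mouse 27, with 43.96%, and Ighm in mouse 21, with 60.2%. The intervals cover counting error only.

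**Figure D4:**
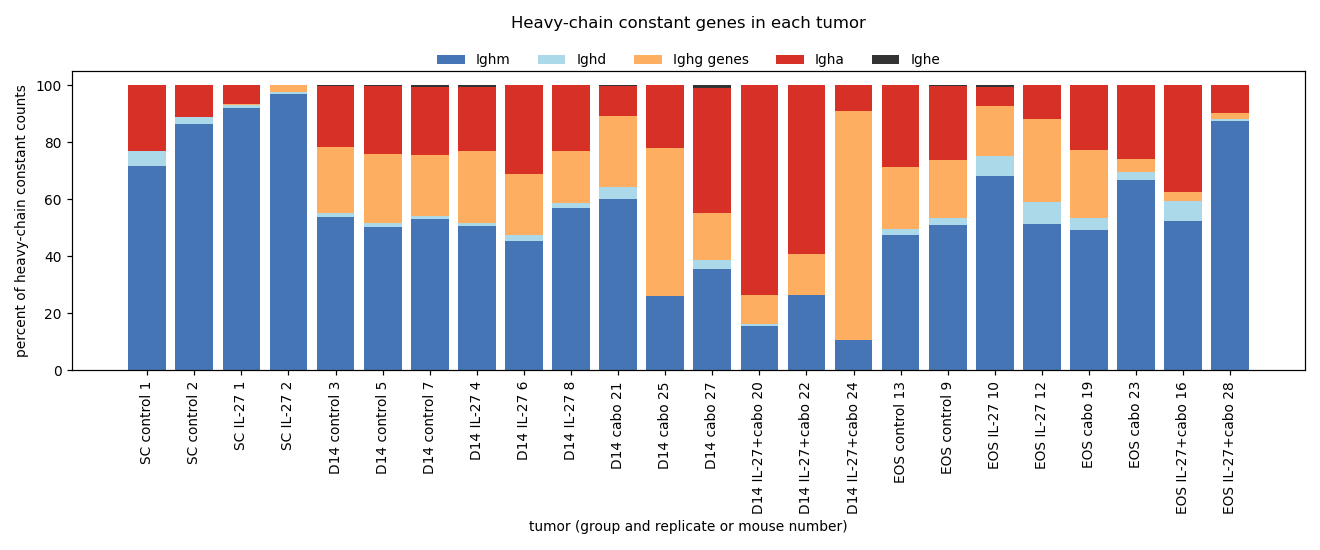
Share of heavy-chain constant counts (y axis, percent) taken by Ighm, Ighd, the 4 Ighg genes, Igha and Ighe in each tumor (x axis). The D14 control and D14 IL-27 tumors are led by Ighm, and the 3 D14 IL-27+cabo tumors are led by Igha or Ighg genes.

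V segments were counted in the same tumors. D14 controls had 1268 to 1798 V counts over 48 to 62 segments with at least 10 counts each, and no segment above 4.12% of them. Mouse 4 had 1451 V counts over 51 such segments, led by Igkv3-2 at 4.14%. Mice 6 and 8, also without cabo, had 167 and 280 V counts over 3 and 6 such segments, led at 10.78% and 6.43%. The D14 cabo tumors had 424 to 920 V counts over 5 to 27 segments, and single segments took 20.05% (Ighv3-8, mouse 21), 16.7% (Ighv14-2, mouse 25) and 10.98% (Ighv1-26, mouse 27). In the IL-27+cabo tumors the leading segment took 9.75% (Igkv1-110, mouse 20), 15.8% (Igkv4-72, mouse 22) and 19.5% (Igkv16-104, mouse 24).

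The number of segments grows with the counts, so it was also computed for a draw of 150 V counts. Such a draw treats counts as independent, which the many multiples of 4 among low member values put in doubt. It may therefore not remove the effect of depth, least of all for tumors with few V counts. Between 72.5 and 76.7 segments were then expected in D14 controls, 72.3 in mouse 4, 46.5 to 50.5 with cabo and 38.9 to 41.2 with IL-27+cabo, and the groups of cabo-treated tumors did not overlap the controls. Mice 6 and 8, whose class shares were close to those of the controls, had 28.9 and 51.0. EOS controls also lay below the D14 controls, at 33.8 and 53.7, and EOS IL-27 tumors and mouse 19 lay between 38.4 and 60.1. Across the 222 segments, Pearson's r between the segment shares of 2 tumors was 0.738 to 0.815 for the 6 pairs among D14 controls and mouse 4, and -0.014 to 0.450 for the 28 pairs of other D14 tumors. This r is across segments, which are not replicates, and shallower tumors give noisier shares. Of the EOS tumors, 5 had 176 to 401 V counts with a leading segment at 3.74% to 6.82%, and 3 had 30 to 88 V counts.

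**Figure D5:**
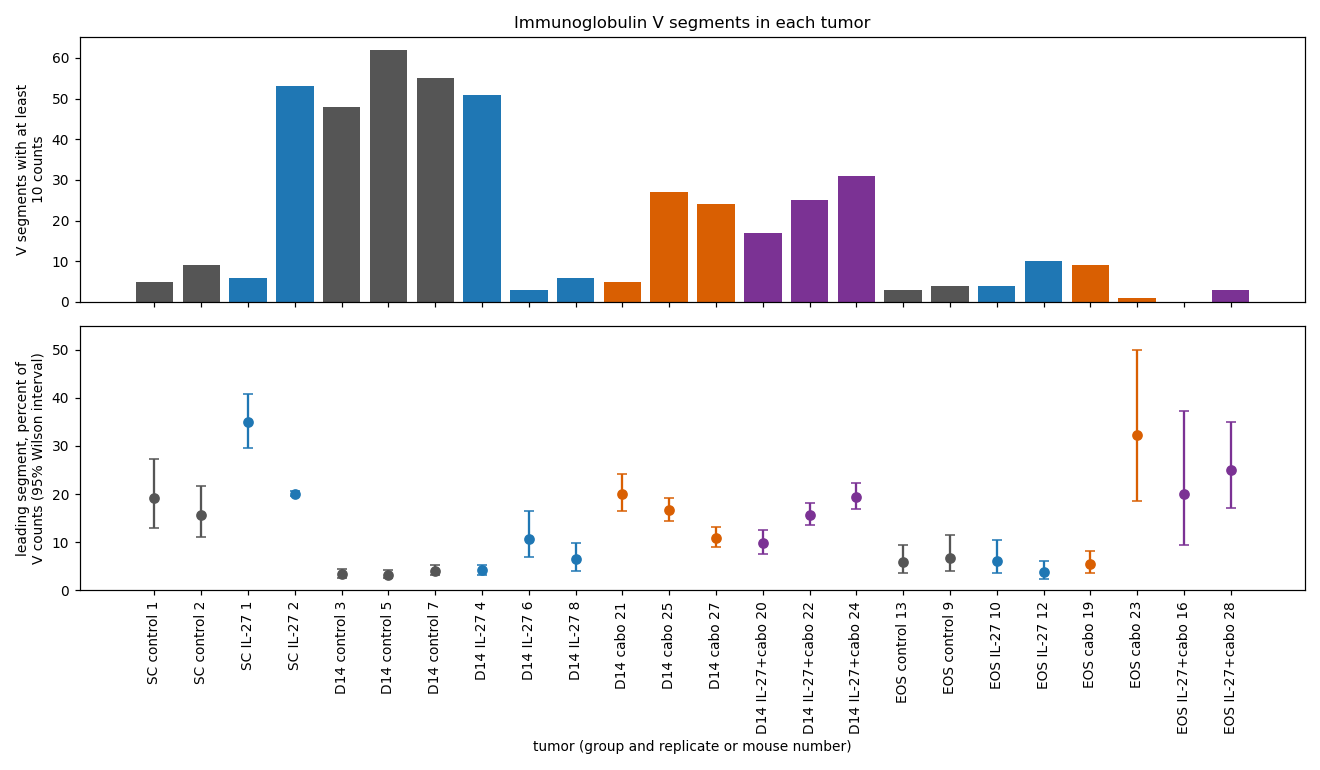
Number of V segments with at least 10 counts (top) and share of V counts in the leading segment with its 95% Wilson interval (bottom), for each tumor (x axis). D14 controls and mouse 4 have 48 to 62 segments and a leading share under 5%, and cabo-treated D14 tumors have 5 to 31 segments and a leading share of 9.75% to 20.05%. Mice 6 and 8, without cabo, have 3 and 6 segments and leading shares of 10.78% and 6.43%.

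B cell precursors, which arise in marrow, left few counts. Of 7 precursor genes, Vpreb2, Vpreb3, Igll1, Rag1 and Rag2 were at 0 in all D14 controls, and Vpreb1, a surrogate light chain, did not exceed 25 counts in any tumor.

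Members were compared with each other over the 20 intratibial tumors, with 100000 permutations for each of the 21 pairs. Igkc and Jchain were closest, with a Pearson's r of 0.930 and a Spearman's rho of 0.907 (permutation p = 1e-05 for r, the smallest these permutations can give, adjusted p = 0.000105). Without the 2 tumors farthest from the median of Igkc r was 0.947, over the 12 D14 tumors 0.843, and after taking out group means 0.833. Ighm had r = 0.752 with Igkc (permutation adjusted p = 0.00077) and 0.789 with Jchain (permutation adjusted p = 0.00014). Cd79a and Ms4a1 had r = 0.819 and rho = 0.725 (permutation adjusted p = 0.000105 and 0.00273), and 0.623 without the 2 farthest tumors. In all, 10 of 21 pairs had an adjusted permutation p under 0.05. No pair with Cd79b or Mzb1 was among them, although by Spearman's rho Cd79b passed with Ighm and Igkc (permutation adjusted p = 0.0178 and 0.0334). These tumors fall into groups that differ in level. With the group means taken out 9 pairs passed, and within the 12 D14 tumors alone 2 did.

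Outside the lists and the immunoglobulin genes, the 10 genes of 21364 whose log2 CPM had the highest Pearson's r with the members' mean over the 20 tumors were Btla, Gimap3, Ubash3a, Cd2, Cd5, Ltb, Pdcd1, Acap1, Cxcr3 and Ms4a4b, with r from 0.912 to 0.846. Btla, a lymphocyte inhibitory receptor, had 3.62 ± 0.206 CPM in D14 controls (SD, n = 3), 3.15 in mouse 4 and at most 1.37 in the other 16 intratibial tumors. Cd5, a surface protein of T cells and B-1 cells, had 4.55 ± 0.350 CPM in D14 controls, 5.22 in mouse 4 and at most 2.66 in the others. These r are given as a description.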

How the data were processed

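RNA was measured in 24 mouse tumors, 4 subcutaneous and 20 intratibial. The authors made stranded poly(A) libraries and deposited raw counts, whole numbers for each Ensembl gene identifier. Their methods name HISAT2, StringTie and ballgown. The submitters' processing notes name FastQC, HISAT2, StringTie, DESeq2 and GRCh38, a human build, although the identifiers are mouse, and the program and annotation behind the counts are not given in the sources used here. Of 55401 identifiers, 55141 matched GENCODE M21 (GRCm38). Each of the 24 value columns was mapped to a sample by name.

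Counts were tested in R 4.3.3 with edgeR 4.0.16 (filterByExpr, TMM, quasi-likelihood F test, two-sided, Benjamini-Hochberg over all genes tested), with an adjusted p under 0.05 as a call, in place of the DESeq2 the study used. Treated and control groups were fitted as pairs, EOS treatments with all EOS groups, and interactions with all groups concerned. CPM used TMM within SC and within intratibial tumors, and log2 CPM a prior count of 2. Alternatives were DESeq2 1.42.0, RLE, no filter, counts divided by 4, immunoglobulin genes left out of library sizes, a GC content and length trend removed by splines with 5 degrees of freedom, the muscle genes as a covariate, all intratibial groups in 1 fit, the study's limits (p under 0.05 with a fold change of 1.5 for SC, or a log2 fold change of 1.5 for intratibial tumors), leaving out each tumor, and a replicate block for SC. The script was tested on simulated data. Labels do not say how replicates relate beyond mouse and replicate numbers, so p-values measure the spread between these tumors. Depth was 63729005 to 83782258 counts per library, and intervals are 95% Wilson intervals of counting error.

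The members and the 15 gene lists were chosen with earlier results of these data known. Named genes are the members, the immunoglobulin constant genes, the leading V segments, list genes called (up to 3 in each direction), the check genes and the 10 genes most like the members' mean. Some genes, such as Cxcl13 and the Vpreb and Rag genes, were named after their counts were seen.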

Additional observations from a re-analysis of the deposited data

Results flagged for a closer look

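Ms4a1 was higher in every SC IL-27 tumor and lower in every D14 IL-27 tumor than the mean of its controls. Relative to the mean log2 CPM of the controls, the SC IL-27 tumors lay 3.04 and 4.50 above it, and the 3 D14 IL-27 tumors lay between -2.29 and -1.11. The 2 EOS IL-27 tumors lay 1.91 and 2.24 above the EOS control mean, on the side of the SC tumors. The D14 difference did not pass its test (edgeR adjusted p = 1), and its log2 fold change ran from -2.92 to -1.47 with 1 tumor left out. The difference between the experiments was not tested, since SC and intratibial tumors were normalized apart. Counts of Ms4a1 in the D14 IL-27 tumors were 12, 4 and 4.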

How the results depend on the processing

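Counts of members called moved under several settings. In SC, DESeq2, RLE, counts divided by 4 and the study's limits each called 4, adding Ighm, while 1 was called with no filter and 1 with the GC content and length trend removed, and leaving out 1 tumor gave 0 to 4. With D14 cabo, DESeq2 called 3, the muscle covariate 0 and all intratibial groups in 1 fit 0, and leaving out 1 tumor gave 1 to 2. With D14 IL-27+cabo, DESeq2 called 1 and the study's limits 1, and leaving out 1 tumor gave 0 to 1. For EOS control against D14 control, the study's limits called 4, DESeq2 called 3, and no filter, the muscle covariate, all groups in 1 fit and leaving out any tumor called 0. The study's limits called 1 for D14 IL-27, the D14 interaction, EOS IL-27+cabo against its control, EOS IL-27 against D14, EOS cabo against D14, and the EOS minus D14 change of IL-27 and of IL-27+cabo. For EOS IL-27+cabo against D14 they called 2, as did DESeq2. Leaving out 1 tumor gave 0 to 1 for EOS cabo against D14. Of 21 pairs of members, 2 passed over the 12 D14 tumors, 9 with group means taken out and 11 by Spearman's rho, which was added after seeing the data. Igkc in D14 IL-27+cabo against controls, at a log2 fold change of 0.34, reversed to -0.13 with the GC content and length trend removed and to -1.86 with the muscle covariate, and ranged from -0.98 to 0.72 when 1 tumor was left out. The causes were not tested.

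Same-numbered SC tumors share only a number: the correlation of their deviations was 0.031. With the replicate block 4 members were called, Ighm among them at a log2 fold change of 3.19 (edgeR adjusted p = 0.0213), and with the block and the GC content and length trend removed 3, without Ms4a1 (2.99, edgeR adjusted p = 0.0663). Over all genes, calls ran from 1668 (GC content and length trend removed) to 6172 (DESeq2) beside 3880 in SC, from 0 to 1497 beside 352 with D14 cabo, from 0 to 483 beside 12 with D14 IL-27+cabo, from 0 to 872 beside 20 for EOS against D14 controls, and from 51 to 1739 beside 400 for EOS against D14 cabo. Of the other member fold changes, 68 values of 39 results changed sign under an alternative, none with an adjusted p under 0.405 where one was given. Low counts limit Mzb1, Cd79a and Ms4a1: a count of 0 allows up to 3 counts.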

Other observations

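Among genes that guide or feed B cells, Il6 had 544 and 417 counts in the SC IL-27 tumors and 78 and 53 in the SC controls, a log2 fold change of 2.85 (SE, standard error, 0.53, edgeR adjusted p = 0.0105). It was the 1 gene called of 6 on that list. Over all 19360 genes tested in SC tumors, 682 were called higher and 3198 lower. With the GC content and length trend removed these were 518 and 1150. Slamf7 rose in the same comparison by 2.51 on the log2 scale (SE 0.43, edgeR adjusted p = 0.00817), while Sdc1, a plasma cell marker that epithelial cells also carry, fell by 2.34 (SE 0.33, edgeR adjusted p = 0.0039) and Fkbp11 by 2.28 (SE 0.51, edgeR adjusted p = 0.0217), making 1 higher and 2 lower of 8 plasma cell genes tested. Gcsam, a germinal center B cell gene, had 174 and 429 counts with IL-27 and 12 and 22 in controls, a rise of 4.09 on the log2 scale (SE 0.77, edgeR adjusted p = 0.0112), and was the 1 called of 4 germinal center genes tested. The lambda constant genes Iglc1 and Iglc2 were called higher too (edgeR adjusted p = 0.0398 and 0.0448), with 13 and 2742 counts of Iglc1 against 3 and 0, and 11 and 1689 of Iglc2 against 0 in both controls. Of 8 B cell transcription factors 1 was called in SC tumors: Tcf3, which encodes E2A and is expressed in many tissues, had 254 and 244 counts with IL-27 and 5421 and 6512 in controls, and fell by 4.62 on the log2 scale (SE 0.37, edgeR adjusted p = 0.00138). Between EOS cabo and D14 cabo, Cxcl12, a chemokine that retains B cells in marrow, had a log2 fold change of -1.37 (SE 0.18, edgeR adjusted p = 0.0213), and Xbp1, a transcription factor of secretory cells, one of -0.39 (SE 0.07, edgeR adjusted p = 0.0461).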
